A study of Homo sapiens with 9 samples.

Results

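The aryl hydrocarbon receptor pathway was described through 6 genes, AHR, ARNT, AHRR, TIPARP, CYP1A1 and CYP1B1, of 18064 genes in a table of RNA sequencing levels from 9 libraries. The genes were taken by symbol, and all 6 had a row. They were proposed with their levels in these libraries already known, so the values that chose them come from the same comparisons given here, and their differences are described without a test. The titles name 3 groups of 3 libraries each, si-NC with a control siRNA, and si1-BCLIN25 and si2-BCLIN25 with different siRNAs against the RNA BCLIN25. The titles give the cells as MDA-MB-231/PTX, triple-negative breast cancer cells resistant to paclitaxel, and the treatment protocol does the same, but the source field and the treatment characteristic give them as PC9/GR, lung adenocarcinoma cells resistant to gefitinib, with shRNAs against HUMT. All groups share the growth medium, RPMI with fetal bovine serum, and the labels name no added ligand of the receptor. BCLIN25 itself was not analysed here, so the knockdown was not checked.

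AHR is a ligand-activated transcription factor of the bHLH-PAS family. It waits in the cytoplasm in a complex with HSP90, moves to the nucleus when it binds a ligand such as a dioxin, a polycyclic aromatic hydrocarbon or the tryptophan product kynurenine, and there pairs with ARNT to bind response elements. The best known genes it switches on are the cytochrome P450 enzymes CYP1A1 and CYP1B1, which oxidise aromatic hydrocarbons and oestrogens, and its own inhibitors AHRR and TIPARP.

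The core of the response element to which AHR and ARNT bind is GCGTG, and the upstream bases of the members that hold it are shown because they place that motif beside the start of an enzyme and of both inhibitors. They are read 5′ to 3′ on the strand of the gene from the RefSeq promoter table for GRCh38.p14, in which 5 members matched with 8 start sites in all. Each line gives the 250 bases before a start site, with the core in capitals, written CACGC where it lies on the opposite strand.
CYP1A1, chr15:74725529-74725778, minus strand: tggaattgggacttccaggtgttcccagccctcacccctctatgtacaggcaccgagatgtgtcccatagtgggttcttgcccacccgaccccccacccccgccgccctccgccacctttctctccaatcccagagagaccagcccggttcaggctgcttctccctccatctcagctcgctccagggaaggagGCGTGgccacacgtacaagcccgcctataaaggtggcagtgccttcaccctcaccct
AHRR, chr5:321464-321713, plus strand: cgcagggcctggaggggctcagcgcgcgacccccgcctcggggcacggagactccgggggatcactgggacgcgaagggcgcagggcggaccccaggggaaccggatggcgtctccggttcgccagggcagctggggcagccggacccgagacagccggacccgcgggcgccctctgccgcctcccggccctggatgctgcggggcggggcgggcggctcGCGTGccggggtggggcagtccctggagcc
TIPARP, chr3:156674340-156674589, plus strand: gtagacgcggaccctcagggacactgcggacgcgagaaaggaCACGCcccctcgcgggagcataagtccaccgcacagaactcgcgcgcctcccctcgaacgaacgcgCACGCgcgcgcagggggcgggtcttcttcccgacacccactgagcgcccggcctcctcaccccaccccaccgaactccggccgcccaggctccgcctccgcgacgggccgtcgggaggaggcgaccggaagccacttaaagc

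The core began 57 bases before the start of CYP1A1, 30 bases before the first start of AHRR, and 208 and 142 bases before the first start of TIPARP, there on the opposite strand. The match in the first AHRR window also fitted the longer form TNGCGTG. The second AHRR window held the core at 247 and 42 bases before its start. In AHR the core lay 38 bases past the start, and none was found in the ARNT window or in the other TIPARP windows. CYP1B1 had no window in the promoter table, so it was not searched. Searched on both strands, the core occurred in 32.2% of all 35116 stretches of this length and TNGCGTG in 4.5%, and over windows extended by 50 bases past the start in 36.5% and 5.5%. A match to these letters describes the sequence and is not a measured binding site. The known enhancer of CYP1A1 lies further upstream than this window.

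Levels are FPKM, fragment counts scaled to transcript length and to library total, so levels of different genes are compared per length. FPKM summed to 394081 to 405922 per library in si-NC and to 408641 to 419025 in the siRNA groups, with 4.65% to 4.88% and 5.30% to 5.60% of it in the 10 most abundant genes, and 11812 to 11856 genes reached 1 FPKM in si-NC against 12091 to 12139 in the siRNA groups. Only the control columns have a prefix in the table's header, which the labels leave unexplained, so handling and group cannot be told apart. These totals do not overlap between control and siRNA libraries, and their part in the differences below was not tested. Markers did not settle the cell line. Of 6 markers of MDA-MB-231 cells, 5 were at 1 FPKM or more in every library, but ZEB1 reached at most 0.14 FPKM. All 8 epithelial markers were present at far higher levels than ZEB1. CDH1 was at 31.4 to 46.5 FPKM, EPCAM at 92.7 to 143, ESRP1 at 51.2 to 76.1 and CLDN4 at 22.6 to 48.7. The oestrogen receptor ESR1, from outside the marker lists, ran from 3.43 to 4.46 FPKM over the libraries, although the titled cells are triple-negative. The levels of ZEB1, the epithelial markers and ESR1 were thus at odds with the titled line. Which cells these were was not tested. Of the 4 lung markers, NKX2-1 reached at most 0.78 FPKM, NAPSA at most 0.34 and SFTPC at most 0.06, while SFTPB was at 0.75 to 1.22 FPKM in si-NC and at 1.33 to 1.96 in the siRNA groups, and the list summed to 1.02 to 1.57, 2.55 to 2.97 and 2.01 to 2.66 FPKM. The summed MDA-MB-231 markers ran from 730.4 to 751 FPKM in si-NC, from 486 to 502 in si1-BCLIN25 and from 524 to 536 in si2-BCLIN25. Within that list VIM and MSN were lower with the siRNAs (VIM 80.5 to 81.3, 13.5 to 14.9 and 22.3 to 22.6 FPKM), and CAV1 was higher (273 to 294, 359 to 374 and 379 to 388 FPKM). The summed epithelial markers ran from 1716 to 1803, 2461 to 2660 and 2420 to 2506 FPKM, but without the keratin KRT19 from 1062 to 1093, 873 to 924 and 901 to 917. The epithelial list was split. Like KRT19, the markers CDH1, ESRP1 and CLDN7 were higher in every siRNA library than in every control library. EPCAM, KRT8, KRT18 and CLDN4 were lower in the same way. CDH1 was at 31.4 to 32.4, 43.8 to 46.5 and 44.6 to 45.6 FPKM. KRT18 was at 296 to 306, 166 to 184 and 176 to 181 FPKM. These marker levels moved with the groups beside every difference below, and their part in it was not tested. The liver marker ALB was at 0.05 FPKM or less, endothelial markers summed to at most 0.3 FPKM, and the collagens COL1A2 and COL3A1 were at 0.04 FPKM or less, while the summed fibroblast markers ran from 15.2 to 16.4 FPKM in si-NC and from 26.5 to 29.1 in the siRNA groups, and the summed leukocyte markers from 57.5 to 62.7 and from 41.6 to 47.0. Most of the leukocyte sum was LAPTM5, at 53.2 to 58.0, 40.8 to 42.1 and 36.3 to 37.0 FPKM. CD14 went the other way, at 0.23 to 0.38, 0.88 to 1.35 and 1.06 to 1.13 FPKM. PTPRC and CD68 overlapped between control and siRNA libraries. No label says that replicates came from separate cultures, so errors and p-values measure the spread between libraries, which may be technical.

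Of the enzymes, CYP1A1 was higher and CYP1B1 lower with both siRNAs. CYP1A1 (gene 1543) was at 5.05, 5.06 and 4.44 FPKM in si-NC, at 21.3, 19.7 and 21.1 in si1-BCLIN25 and at 23.3, 22.5 and 23.6 in si2-BCLIN25. Every siRNA library lay far above every control library, and the si2-BCLIN25 libraries all lay above those of si1-BCLIN25. Group means were 4.85 ± 0.36, 20.7 ± 0.84 and 23.1 ± 0.55 FPKM (SD, n = 3 each), which is 4.27 and 4.77 times the control level. In a bulk sample, a change in the number of cells that express a gene and a change in RNA per cell cannot be told apart.

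CYP1B1 (gene 1545) went the other way. It was at 8.60, 8.87 and 9.43 FPKM in si-NC, at 0.39, 0.46 and 0.35 in si1-BCLIN25 and at 0.35, 0.45 and 0.36 in si2-BCLIN25. All 6 siRNA libraries lay below 1 FPKM and the siRNA groups overlapped each other. The means were 8.97 ± 0.42, 0.40 ± 0.056 and 0.387 ± 0.055 FPKM (SD, n = 3 each), so the control level was 22.4 and 23.2 times that of the siRNA groups. CYP1B1 passed the minimum of 1 FPKM in 3 libraries through the control group alone, whereas the other 5 members reached it in all 9 libraries. CYP1A2, the third enzyme of the family and mainly a liver enzyme, stayed between 0.42 and 0.75 FPKM and was not tested.

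**Figure D1:**
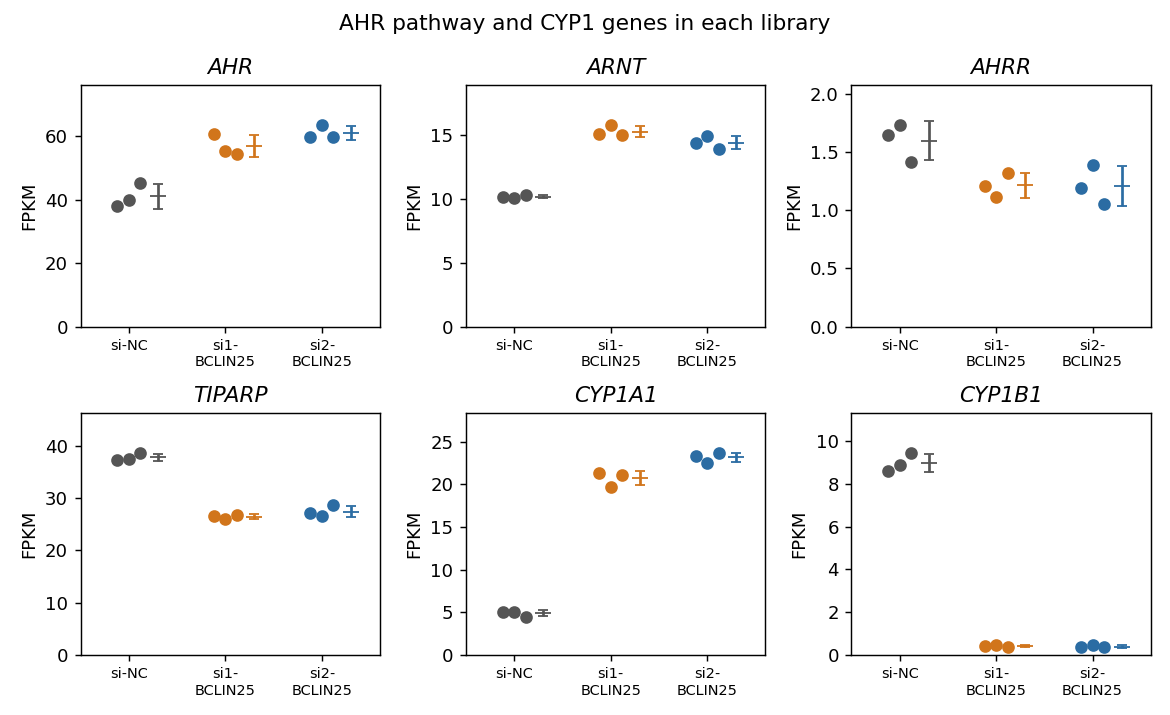
FPKM of each member in each library, with group means and SD beside the points (n = 3 per group) and every axis starting at 0. AHR, ARNT and CYP1A1 lie higher in both siRNA groups, AHRR, TIPARP and CYP1B1 lie lower, and CYP1B1 drops from a mean of 8.97 FPKM to 0.40 and 0.387.

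Within each library the pair of enzymes therefore changed places. CYP1A1 was 0.47 to 0.59 times the level of CYP1B1 in the control libraries, 42.9 to 60.2 times in si1-BCLIN25 and 50.1 to 66.5 times in si2-BCLIN25. The ratio of the receptor to its partner, AHR over ARNT, stayed between 3.50 and 4.39 over all 9 libraries.

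**Figure D2:**
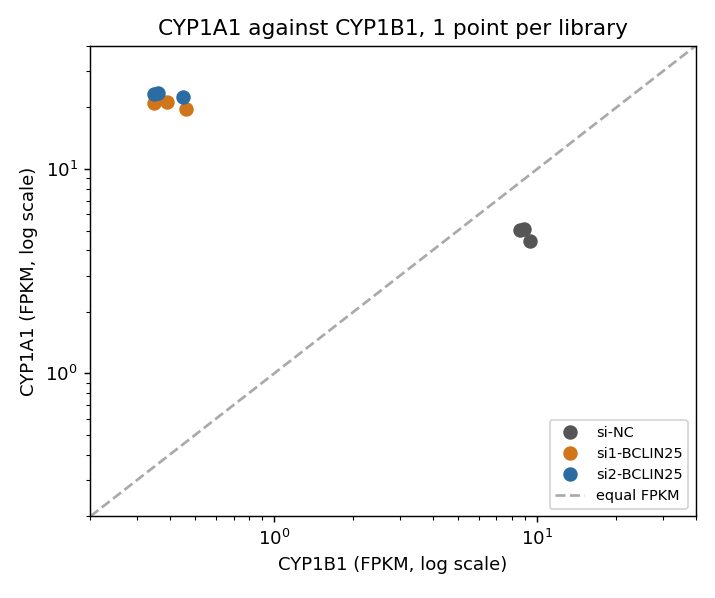
CYP1A1 against CYP1B1 in FPKM, both axes on a log scale, 1 point per library, with a dashed line where both genes are equal. The 3 si-NC libraries lie below the line, at ratios of 0.47 to 0.59, and the 6 siRNA libraries lie above it, at 42.9 to 66.5.

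The receptor and its partner were both higher with the siRNAs. AHR (gene 196) was at 37.9, 39.8 and 45.4 FPKM in si-NC, at 60.8, 55.2 and 54.5 in si1-BCLIN25 and at 59.6, 63.5 and 59.9 in si2-BCLIN25. The third control library was the highest of its group and still below all siRNA libraries, and the siRNA groups overlapped. ARNT (gene 405), which also pairs with the hypoxia factor HIF1A, was at 10.1, 10.1 and 10.3 FPKM in si-NC, at 15.1, 15.8 and 15.0 in si1-BCLIN25 and at 14.4, 15.0 and 13.9 in si2-BCLIN25. The control libraries were the lowest, and each si2-BCLIN25 library lay just below all of si1-BCLIN25. Mean AHR was 41.0 ± 3.9, 56.8 ± 3.4 and 61.0 ± 2.2 FPKM (SD, n = 3 each). Mean ARNT was 10.2 ± 0.12, 15.3 ± 0.44 and 14.4 ± 0.52 FPKM (SD, n = 3 each).

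Both inhibitors were lower. AHRR (gene 57491), the repressor that competes with AHR for ARNT, was the scarcest member in the control cells, at 1.65, 1.73 and 1.41 FPKM in si-NC, 1.21, 1.11 and 1.32 in si1-BCLIN25 and 1.19, 1.39 and 1.05 in si2-BCLIN25. The groups stood apart by a small margin, the lowest control library lying just above the highest siRNA library. TIPARP (gene 25976), a mono-ADP-ribosyltransferase that modifies AHR and limits its activity, was at 37.4, 37.6 and 38.6 FPKM in si-NC, at 26.6, 26.0 and 26.9 in si1-BCLIN25 and at 27.1, 26.6 and 28.6 in si2-BCLIN25. The control libraries were clearly the highest and the siRNA groups overlapped. Mean AHRR was 1.60 ± 0.17, 1.21 ± 0.11 and 1.21 ± 0.17 FPKM (SD, n = 3 each). Mean TIPARP was 37.9 ± 0.65, 26.5 ± 0.44 and 27.5 ± 1.0 FPKM (SD, n = 3 each). RefSeq places other transcripts over 3 members (PDCD6-AHRR over AHRR, TIPARP-AS1 over TIPARP and LOC101927609 over AHR), which were not used here. Whether counting used strand is not given in the sources used here, so reads from these overlaps could not be told apart.

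The order of levels was AHR, TIPARP, ARNT, CYP1B1, CYP1A1, AHRR in each control library. In each siRNA library it was AHR, TIPARP, CYP1A1, ARNT, AHRR, CYP1B1. AHR and TIPARP were the only neighbours in these orders whose ranges overlapped, and they did so in si-NC.

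On the log2(FPKM + 1) scale, which understates changes of low genes, the differences from si-NC were 1.89 (SE 0.061) in si1-BCLIN25 and 2.05 (SE 0.055) in si2-BCLIN25 for CYP1A1. For CYP1B1 they were -2.83 and -2.85 (SE 0.048 each). Among the 12317 genes tested, CYP1A1 ranked 65th and 48th from the highest difference and CYP1B1 16th and 12th from the lowest. The other 4 members moved less. Differences were 0.46 (SE 0.090) and 0.56 (SE 0.080) for AHR and 0.54 (SE 0.024) and 0.46 (SE 0.030) for ARNT. They were -0.50 (SE 0.019) and -0.45 (SE 0.033) for TIPARP and -0.23 (SE 0.067) and -0.23 (SE 0.084) for AHRR. The values of the low genes depend on the scale. AHRR was at -0.40 and -0.43 after quantile normalization and at -0.37 and -0.38 with a pseudocount of 0.1, and CYP1B1 at -4.19 and -4.22 with that pseudocount.

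All 6 members stood apart from si-NC in both siRNA groups, 3 higher and 3 lower, in libraries that did not overlap. Over all genes tested, 39.0% were higher without overlap and 25.7% lower without overlap in si1-BCLIN25, and 40.5% and 26.6% in si2-BCLIN25. The members were chosen on these contrasts, which also share the control libraries, so nothing is read from the count. Between the siRNA groups, 2 of 6 members did not overlap, against 25.9% of all genes. These were CYP1A1, higher by 0.15 (SE 0.038) in si2-BCLIN25, and ARNT, at -0.079 relative to si1-BCLIN25. The other 4 overlapped, with differences of 0.10 for AHR, 0.051 for TIPARP, -0.0039 for AHRR and -0.014 for CYP1B1.

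**Figure D3:**
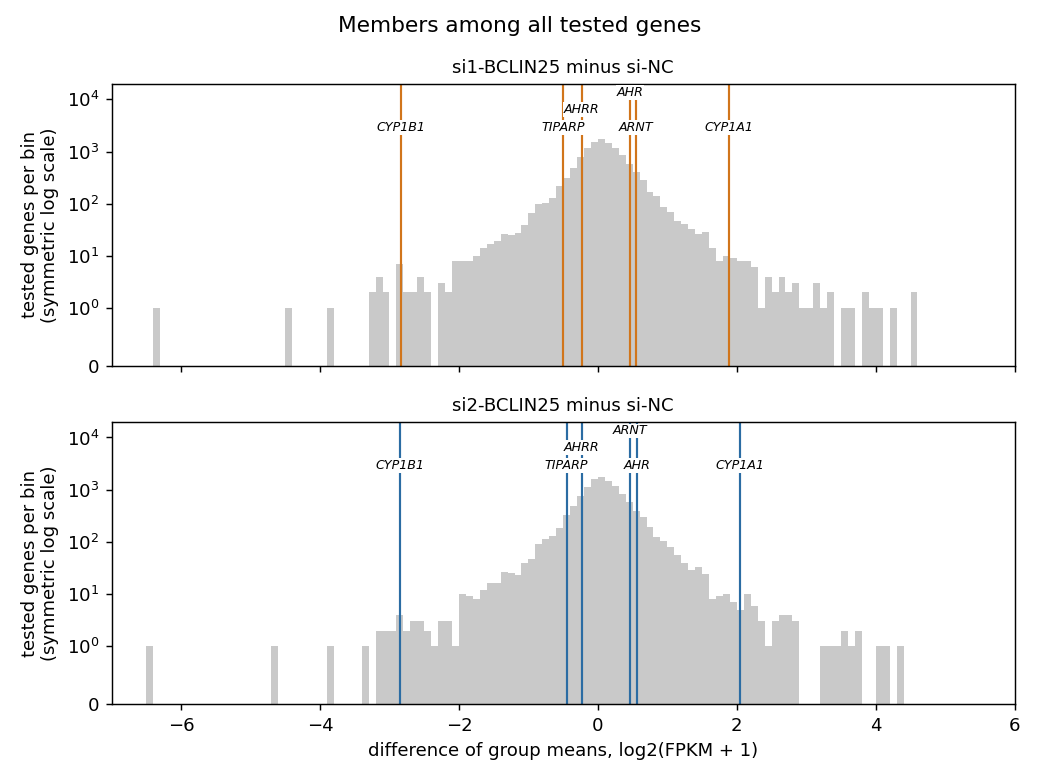
Number of tested genes by their difference from si-NC on the log2(FPKM + 1) scale, in si1-BCLIN25 (top) and si2-BCLIN25 (bottom), on a symmetric log axis, with a line at each member. CYP1A1 at 1.89 and 2.05 and CYP1B1 at -2.83 and -2.85 lie in the sparse tails, and the other 4 members lie in the flanks of the main body.

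The genes whose profile over the 9 libraries was most like that of a member were found by the root mean square difference of centred log2(FPKM + 1) values, as a description with no test. Nearest to CYP1A1 were GBP1, an interferon-induced GTPase, at 0.089, LGALS1, a galectin, at 0.114, and IDO1, which starts the breakdown of tryptophan to kynurenine, at 0.116. GBP1 went from 1.61 FPKM in si-NC to 9.09 and 9.31. Nearest to CYP1B1 were the cyclin CCND1 at 0.053 and the transglutaminase TGM2 at 0.060. CCND1 went from 109 FPKM to 14.3 and 14.8, and TGM2 from 338 to 45.0 and 46.5. CYP1B1 changed by a larger factor, from 8.97 FPKM to 0.40 and 0.387. The scale understates changes of low genes, so for these likeness in profile is not likeness in fold change. AHR was nearest to ABHD17C (0.032), ELAVL2 and IKZF2. ARNT was nearest to CEP76 (0.027), TAGLN2 and MVK. TIPARP was nearest to MCTP1 (0.020), SH3RF1 and RANBP2. AHRR was nearest to OSTF1 (0.036), PCGF1 and RASIP1.

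CYP1B1, on chromosome 2, lay among genes that were mostly lower as well. Of its 50 nearest tested genes in RefSeq order, from EHD3 to SIX2, 33 fell and 3 rose with si1-BCLIN25, and with si2-BCLIN25 31 fell and 7 rose (limma with Benjamini-Hochberg adjustment, threshold 0.05). Over all genes tested, 24.6% fell and 38.4% rose with si1-BCLIN25, and with si2-BCLIN25 24.4% fell and 38.6% rose. The median difference of the window was -0.31 and -0.23, against 0.060 and 0.063 over all genes. None of the 50 was as low as CYP1B1, the lowest being XDH at -1.63 and -1.58, and the genes on either side, RMDN2 and ATL2, were at -0.11 and -0.18 in si1-BCLIN25 and at -0.11 and -0.075 in si2-BCLIN25. Windows around ARNT and CYP1A1 leaned their way too. Around ARNT on chromosome 1, 33 of 50 genes rose and 5 fell with si1-BCLIN25 and 27 and 8 did with si2-BCLIN25 (medians 0.21 and 0.17). Around CYP1A1 on chromosome 15, 26 rose and 6 fell, and 23 and 11 (medians 0.14 and 0.10). Around AHR on chromosome 7, 15 rose and 16 fell, and 20 and 14, with window medians of 0.031 and 0.057, just below those over all genes. The medians were 0.021 and 0.073 for TIPARP on chromosome 3, a sign opposite to its own (18 rose and 14 fell, then 21 and 14). Over the 29 neighbours of AHRR, near the end of chromosome 5, they were -0.065 and -0.087 (6 rose and 12 fell with either siRNA).

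**Figure D4:**
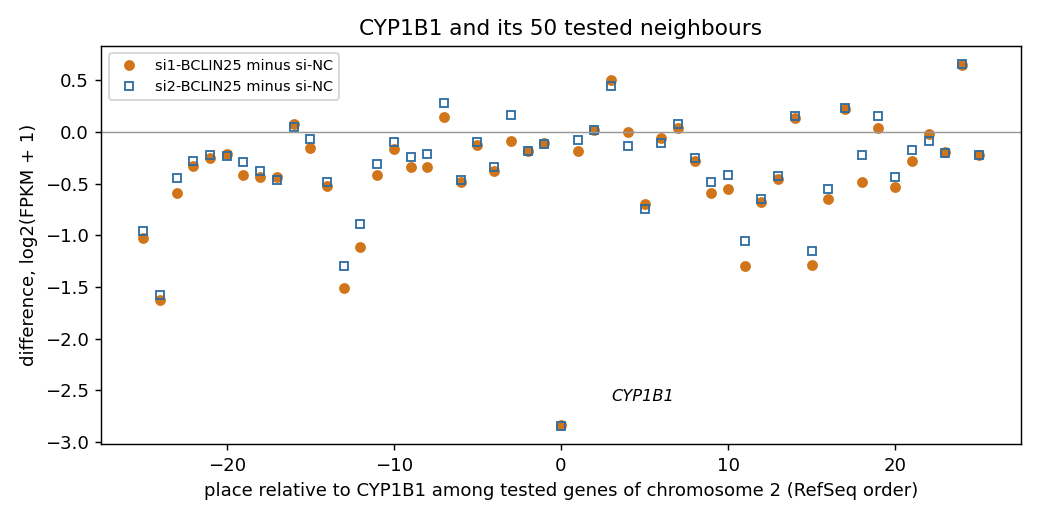
Difference from si-NC on the log2(FPKM + 1) scale for CYP1B1 and the 25 tested genes on either side, by place in RefSeq order, filled circles for si1-BCLIN25 and open squares for si2-BCLIN25. Most neighbours lie below 0, with medians of -0.31 and -0.23, and CYP1B1 at -2.83 and -2.85 lies below all of them.

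The wider pathway was described through 9 lists of 129 genes, 128 of them measured and 102 tested. In limma, 45 of the tested genes rose and 30 fell with si1-BCLIN25, and with si2-BCLIN25 43 rose and 36 fell, with medians of 0.088 and 0.078. That is 44.1% up and 29.4% down, then 42.2% and 35.3%. The shares over all genes were 38.4% and 24.6%, then 38.6% and 24.4%. Each share was higher on the lists, most of all for falls with si2-BCLIN25. The lists were chosen with earlier results of these data known, so this is not read as a result about the pathway. Over all genes, 7766 and 7759 were called, 60.9% and 61.3% of them upward, a share that was 50.1% and 50.7% after quantile normalization. Between the siRNA groups 0 of the 102 passed, against 0.585% of all genes, or 72 genes. That count fell to 5 without si1-BCLIN25 replicate 2 or 3, and to 3, 8 and 2 without si2-BCLIN25 replicate 1, 2 or 3, and was 126 without si-NC replicate 1.

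The chaperone complex that holds AHR in the cytoplasm and the exporter that returns it there were taken as 1 list. Of its 7 genes, 3 fell with si1-BCLIN25 and 2 with si2-BCLIN25 while 0 rose, with medians of -0.077 and -0.083. Among all genes tested, 24.6% and 24.4% fell and 38.4% and 38.6% rose. Counts near these shares, here and in the lists below, are not read as results about a list. The shares are for values without scaling, so they do not match list counts given after quantile normalization or median centring. The exporter XPO1 fell from 118 ± 5.5 FPKM to 101 ± 5.7 and 109 ± 3.8 (limma adjusted p = 0.00179 and 0.0464). Its second call was lost without si-NC replicate 1 or 3, without si1-BCLIN25 replicate 3 and without si2-BCLIN25 replicate 1 or 3, at adjusted p = 0.0559 to 0.175 in limma, and leaving out any of these 3 siRNA libraries left 1 fall on the list in si2-BCLIN25. The cochaperones PTGES3 (248, 236 and 250.2 FPKM) and CDC37 (93.8, 95.6 and 95.5 FPKM) passed in neither. After median centring the falls were 5 and 4, PTGES3 among them in si1-BCLIN25 (limma adjusted p = 0.0437).

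Coregulators went both ways. Of 14 genes, 3 rose and 5 fell with si1-BCLIN25, and with si2-BCLIN25 3 rose and 8 fell, with medians of -0.059 and -0.12. Among all genes, 38.4% and 38.6% rose and 24.6% and 24.4% fell. The coactivator NCOA2 rose from 7.88 ± 0.24 FPKM to 11.4 ± 0.77 and 10.7 ± 0.18. The coactivator NCOA1 fell from 5.07 ± 0.13 FPKM to 4.14 ± 0.14 and 3.97 ± 0.19. KLF6, a zinc finger factor that can bind with AHR, fell from 33.3 ± 0.40 FPKM to 16.3 ± 0.25 and 18.4 ± 0.23, a log2 difference of -0.98 and -0.83 (limma adjusted p = 1.8e-10 and 1.1e-09). RB1 and the oestrogen receptor ESR1 passed in neither group.

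Of 13 other bHLH-PAS factors, 8 were tested. With si1-BCLIN25 3 rose and 2 fell, and with si2-BCLIN25 2 rose and 3 fell, with medians of -0.054 and 0.023. The shares of all genes were 38.4% and 38.6% up, and 24.6% and 24.4% down. ARNT2, the close relative of ARNT, rose from 4.78 ± 0.076 FPKM to 6.24 ± 0.27 and 5.97 ± 0.11. The clock factor NPAS2 fell from 6.55 ± 0.33 FPKM to 1.92 ± 0.087 and 1.84 ± 0.16, a log2 difference of -1.37 and -1.41 (limma adjusted p = 2.5e-09 and 2.1e-09). BMAL2 fell from 22.8 ± 0.60 FPKM to 14.4 ± 0.31 and 15.4 ± 0.26, and CLOCK and SIM2 passed in neither, although SIM2 did in si1-BCLIN25 after quantile normalization (limma adjusted p = 0.0409). HIF1A, the hypoxia factor that also uses ARNT, rose from 187 ± 3.3 FPKM to 205 ± 6.6 and 202 ± 3.5 (limma adjusted p = 0.00546 and 0.0163). Both HIF1A calls were lost after median centring (limma adjusted p = 0.0568 and 0.174), and the second also without si2-BCLIN25 replicate 2 or 3 (limma adjusted p = 0.0535 and 0.0641), leaving 1 rise there.

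The HIF target list, read beside it, was split. Of 11 genes, 5 rose and 6 fell with either siRNA, at medians of -0.20 and -0.17. Among all genes, 38.4% and 38.6% rose and 24.6% and 24.4% fell. The carbonic anhydrase CA9, which passed the minimum through the siRNA groups alone, rose from 0.30 ± 0.15 FPKM to 3.61 ± 0.61 and 5.36 ± 0.23, NDRG1 from 45.3 ± 1.2 to 122 ± 2.9 and 133 ± 2.0, and the prolyl hydroxylase EGLN3 from 1.71 ± 0.43 to 9.58 ± 0.70 and 11.4 ± 0.91. The growth factor VEGFA fell from 23.8 ± 0.70 FPKM to 13.1 ± 0.44 and 12.8 ± 0.56 (limma adjusted p = 1.1e-08 and 8.5e-09).

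Other reported AHR target genes were divided too. Of 26 measured, 24 were tested, and 10 rose and 12 fell with si1-BCLIN25, and with si2-BCLIN25 11 rose and 12 fell, with medians of -0.21 and -0.090. The shares of all genes were 38.4% and 38.6% up, and 24.6% and 24.4% down. The falls with the smallest p were the collagenase MMP1, the plasminogen activator inhibitor SERPINB2, the cyclooxygenase PTGS2 and xanthine dehydrogenase (XDH), a purine-degrading enzyme that went from 28.4 ± 0.68 FPKM to 8.50 ± 0.33 and 8.82 ± 0.0058 and lies in the CYP1B1 window. MMP1 differed by -6.35 and -6.48, SERPINB2 by -3.14 and -3.05 and PTGS2 by -2.77 and -2.70. HES1 passed in neither group, at 24.1, 23.2 and 24.6 FPKM.

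Some enzymes on that list were singled out after their values were seen, so that their shared direction is fixed by the choice, and XDH, also an oxidoreductase, fell. NQO1, a quinone reductase, rose from 24.5 ± 0.86 FPKM to 41.9 ± 1.7 and 41.5 ± 1.1, by 0.75 and 0.74 (limma adjusted p = 1.2e-08 and 1.5e-08). The glucuronosyltransferase UGT1A6 rose from 9.31 ± 1.0 FPKM to 46.2 ± 2.5 and 46.1 ± 2.7, and is uncertain because it shares exons with the other UGT1A genes. The P450 CYP2S1 rose from 0.893 ± 0.20 FPKM to 2.48 ± 0.29 and 2.36 ± 0.31, and the aldehyde dehydrogenase ALDH3A1 from 0.21 ± 0.087 to 1.15 ± 0.13 and 0.84 ± 0.12. ALDH3A1 passed the minimum through si1-BCLIN25 alone, at 1.03 to 1.28 FPKM, against at most 0.92 in si2-BCLIN25, so that it had to differ in si1-BCLIN25. IDO1 passed through the siRNA groups alone, and IL6 through si-NC alone, so that they had to differ. CYP1A2, on the same list, was below the minimum for testing. With a minimum of 5 FPKM, which removes CYP2S1 and ALDH3A1 among others, the rises on the whole list were 5 and 6.

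Enzymes of tryptophan breakdown, the route to kynurenine, included several that rose. Of 14 genes, 7 were tested, and 6 rose and 0 fell with si1-BCLIN25, and with si2-BCLIN25 5 rose and 1 fell, with medians of 0.40 and 0.46, where 38.4% and 38.6% of all genes rose. After quantile normalization 4 and 5 rose. IDO1 and KMO were below 1 FPKM in every control library and passed the minimum through the siRNA groups alone, so that they had to differ. IDO1 rose from 0.563 ± 0.090 FPKM to 4.58 ± 0.22 and 4.73 ± 0.067, by 1.84 and 1.88 (limma adjusted p = 1.4e-10 and 1.3e-10). The kynureninase KYNU, which degrades kynurenine, rose from 75.8 ± 3.7 FPKM to 95.0 ± 1.7 and 92.5 ± 1.3. The aminotransferases KYAT1 and KYAT3, which turn kynurenine into kynurenic acid, rose as well, KYAT1 from 1.64 ± 0.38 FPKM to 3.46 ± 0.47 and 3.44 ± 0.026 and KYAT3 from 16.9 ± 0.75 FPKM to 22.8 ± 1.8 and 23.6 ± 0.66. The aminotransferase AADAT, named after its values were seen, went the other way, at 13.9 ± 0.72, 12.8 ± 0.29 and 11.8 ± 0.79 FPKM. It was the gene that fell with si2-BCLIN25 (limma adjusted p = 0.0912 and 0.00376). TDO2, the liver enzyme of the same step as IDO1, was at most at 0.01 FPKM as a group mean. With a minimum of 5 FPKM, which removes IDO1 and KYAT1 among others, 3 and 2 genes rose, and without si-NC replicate 1 there was 1 fall in si1-BCLIN25.

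Of 23 other cytochrome P450 genes measured, 12 did not reach the minimum and 11 were tested, with CYP51A1, which makes sterols, the most abundant at 39.9, 43.2 and 44.1 FPKM. With si1-BCLIN25 5 rose and 1 fell, and with si2-BCLIN25 7 rose and 2 fell, with medians of 0.13 and 0.18. Among all genes, 38.4% and 38.6% rose and 24.6% and 24.4% fell. CYP4F11, a fatty acid hydroxylase, rose from 0.513 ± 0.076 FPKM to 1.98 ± 0.12 and 2.08 ± 0.16, having passed the minimum through the siRNA groups alone, and CYP39A1, an oxysterol hydroxylase, from 1.03 ± 0.10 to 2.99 ± 0.48 and 3.44 ± 0.54. The oxysterol hydroxylase CYP7B1 rose from 3.10 ± 0.17 FPKM to 4.63 ± 0.25 and 4.50 ± 0.16. CYP27B1, which activates vitamin D, fell from 2.12 ± 0.20 FPKM to 1.24 ± 0.24 and 1.26 ± 0.040 (limma adjusted p = 0.00039 and 0.00051). CYP2J2 and CYP2R1 passed in neither. Without si1-BCLIN25 replicate 1 or si2-BCLIN25 replicate 3 the falls in si1-BCLIN25 were 2. The counts followed the minimum level, with 1 and 2 rises at 5 FPKM and 5 and 6 falls with no minimum.

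Of 5 genes that pass electrons to P450 enzymes, 2 rose with si1-BCLIN25 and 1 with si2-BCLIN25, with 0 falls and medians of 0.13 and 0.063. The shares of all genes were 38.4% and 38.6% up, and 24.6% and 24.4% down. POR, the reductase on which microsomal P450s depend, rose from 12.9 ± 0.69 FPKM to 20.3 ± 0.95 and 18.6 ± 0.51, by 0.62 and 0.49 (limma adjusted p = 3.3e-07 and 2.7e-06). The cytochrome b5 genes' partner CYB5R3 (36.4, 37.6 and 37.0 FPKM) passed in neither, nor did CYB5A (23.9, 26.3 and 25.6 FPKM). Leaving out si1-BCLIN25 replicate 2 or 3, or si-NC replicate 3, left 1 rise with si1-BCLIN25. Leaving out si-NC replicate 2 brought CYB5A past the threshold in both groups (limma adjusted p = 0.0159 and 0.0455), with 2 rises with si2-BCLIN25, and quantile normalization did so in si1-BCLIN25.

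Among the relatives of TIPARP in the PARP family, more rose than fell, with the number set by the scaling. Of 16 genes, 12 rose and 1 fell with si1-BCLIN25, and with si2-BCLIN25 10 rose and 2 fell, with medians of 0.19 and 0.21, where 38.4% and 38.6% of all genes rose. The rises were 8 and 7 after quantile normalization and 8 and 9 after median centring. Over all genes, 7572 and 7521 were called after quantile normalization, 50.1% and 50.7% of them upward. After median centring 7671 and 7706 were called, 52.1% and 52% of them upward. Without scaling 60.9% and 61.3% of calls were upward. PARP3, counted among the rises, passed the minimum through the siRNA groups alone. PARP14 rose from 6.10 ± 0.18 FPKM to 13.0 ± 0.27 and 13.2 ± 0.010, by 0.98 and 1.00, and PARP9 from 5.63 ± 0.60 to 10.4 ± 0.35 and 11.6 ± 0.43, both known as interferon-induced (limma adjusted p = 9.7e-10 and 8.9e-10 for PARP14). PARP8 rose from 5.88 ± 0.59 FPKM to 8.44 ± 0.57 and 8.61 ± 0.26. PARP4, the vault PARP, fell from 20.3 ± 0.51 FPKM to 15.9 ± 0.74 and 16.3 ± 0.23, while PARP15 and TNKS2 passed in neither. The falls were 2 in si1-BCLIN25 without si1-BCLIN25 replicate 3 or si2-BCLIN25 replicate 1, and 1 in si2-BCLIN25 without si-NC replicate 1 or 2 or si2-BCLIN25 replicate 2 or 3. PARP15 passed in si1-BCLIN25 without si1-BCLIN25 replicate 1 (limma adjusted p = 0.0499) and TNKS2 in si2-BCLIN25 without si-NC replicate 3 (limma adjusted p = 0.0474).

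**Figure D5:**
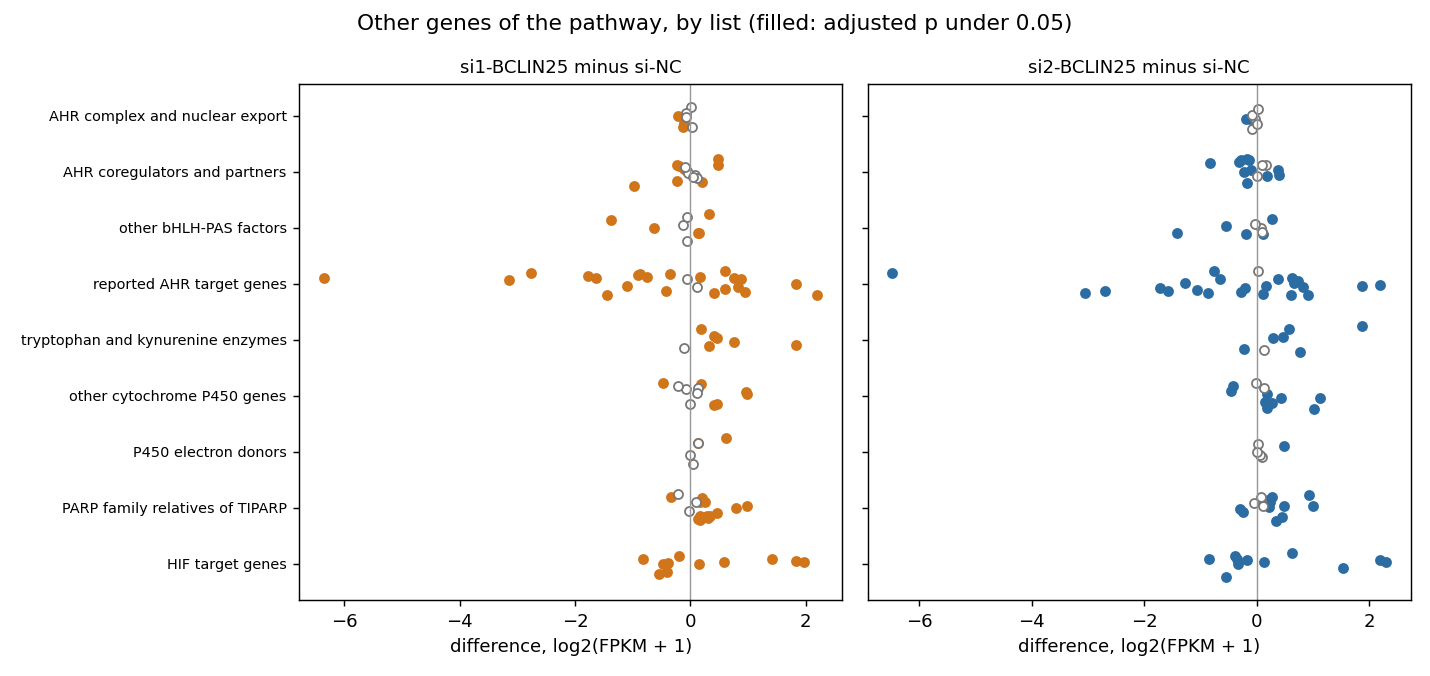
Difference from si-NC on the log2(FPKM + 1) scale for each tested gene of the 9 lists, in si1-BCLIN25 (left) and si2-BCLIN25 (right), with points spread vertically within a list and filled where the limma adjusted p was under 0.05. The AHR targets run from MMP1 at -6.35 and -6.48 to UGT1A6 as the highest. Of 7 kynurenine pathway enzymes, 6 are filled above 0 in si1-BCLIN25, and 5 above and 1 below in si2-BCLIN25. Of 16 PARP genes, 12 are filled above 0 and 1 below in si1-BCLIN25, and 10 and 2 in si2-BCLIN25. Among all genes, 38.4% and 38.6% rose. IDO1, KMO and PARP3 passed the minimum through the siRNA groups alone.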

How the data were processed

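Gene levels came from 1 table of FPKM values in 9 libraries, deposited by the authors and named FPKM per the file headers. Total RNA was extracted with Trizol and sequenced on the BGI500 platform, per the labels' protocols. The submitters' processing notes list DESeq2 1.4.5, RSEM 1.2.12, Bowtie2 2.2.5 and HISAT2 2.0.4 without saying what each did. The genome build is not given in the sources used here, nor is the annotation. Symbols for 17748 of 18064 rows, gene order and promoters came from RefSeq tables (GRCh38.p14). Low genes were searched for read steps, and in 2146 of them 30.7% of values came out whole (tolerance 0.1), so sequencing depth is unknown and no counting interval is given.

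Groups came from the titles. FPKM were taken as log2(FPKM + 1). Genes at 1 FPKM or more in 3 libraries, 12317 in all, were fitted in limma 3.58.1 (R 4.3.3) with group means over all 9 libraries and eBayes with trend, with Benjamini-Hochberg adjustment over all genes tested and a threshold of 0.05. Rose and fell are used of genes past it. For members, the SE comes from the libraries of the groups compared. The fit was tested on simulated data. Members and lists were chosen with earlier results of these data known. The genes named were the members, in each list up to 4 that passed in both siRNA groups the same way with the smallest p and up to 2 that passed in neither, the 3 genes most like each member, and others marked as chosen after their values were seen. Genes given for the windows are their ends, the lowest and the nearest. Cell markers came from fixed lists, but those named were chosen after their values were seen. Alternatives were quantile normalization, median centring, a pseudocount of 0.1, no minimum level, a minimum of 5 FPKM, only the 2 groups compared, limma without trend, a replicate block and each library left out in turn. Protein sequences were not analysed here. Some genes that the naming rule takes are not reported here.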

Additional observations from a re-analysis of the deposited data

How the results depend on the processing

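After quantile normalization and after median centring, the alternatives that can change it, all 6 members still stood apart from si-NC, on values for which they had been chosen. Of all genes called against si-NC, 7766 and 7759, the alternatives gave 6126 to 8335 and 6098 to 8385. The count between the siRNA groups, 72, depends on the choices made: it was 3 with no minimum level, 110 with a minimum of 5 FPKM, 230 with only the 2 groups in the fit and 13 without trend, and 2 to 126 when 1 library was left out. Fewer libraries or genes enter some of these fits, and otherwise the cause was not tested. Replicate numbers did not pair the libraries: over 9 pairs with the same number the correlation of deviations from group means ran from -0.16 to 0.14, 1 of them over 0.1, and with the replicate block 6 genes were called between the siRNA groups. Among list counts not given above, quantile normalization moved falls of bHLH-PAS factors in si1-BCLIN25 from 2 to 4 and rises of other P450 genes in si2-BCLIN25 from 7 to 4. The falls of kynurenine enzymes (0), other P450 genes (1) and PARP genes (1) in si1-BCLIN25 became 1, 2 and 2 under quantile normalization and under median centring, and that of PARP genes 2 with only the 2 groups. Rises of electron donors in si1-BCLIN25 went from 2 to 1 under median centring, with no minimum, with only the 2 groups and without trend. Falls of PARP genes in si2-BCLIN25 went from 2 to 1 with no minimum, at 5 FPKM and with the replicate block, rises of bHLH-PAS factors there from 2 to 1 under median centring, and falls of other P450 genes from 1 and 2 to 0 and 0 at 5 FPKM. XPO1 lost its second call under quantile normalization, with no minimum, without trend and with the block (limma adjusted p = 0.0979, 0.0753, 0.0789 and 0.0692), and the list then had 1 fall in si2-BCLIN25 with no minimum, without trend and with the block. The unknown depth limits the low genes most, AHRR and CYP1B1 among them.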
